A study of Caenorhabditis elegans with 40 samples.

Results

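The Skp1-related genes (skr) of *C. elegans* encode the adaptor subunit of SCF ubiquitin ligases, and 10 of them (*skr-1*, *skr-2*, *skr-3*, *skr-4*, *skr-5*, *skr-7*, *skr-8*, *skr-9*, *skr-10* and *skr-13*) were followed here out of 41560 genes per gene table. The members were taken by name with earlier results of these data known, so counts of members beside the share of all genes are a description. *skr-8* was chosen by its measured counts in these same libraries, for its rise with warmth and age. Its values across temperature and age are therefore given as a description with no test, and counts for those comparisons cover the other 9 members. The tables hold 20 skr genes in all, and the 10 that are not members are summarised at the end.

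Whole animals of wild-type N2 (WT) and of the strain labelled *npr-8*(*ok1439*) were compared. *npr-8* encodes a neuropeptide receptor-like G protein-coupled receptor, and *ok1439* is a deletion allele. Both genotypes were fed *E. coli* OP50 and kept for generations at 20°C or 25°C, and RNA was taken from young adults (day 0 in the labels) or from adults at day 9. This gave 8 groups of 5 libraries, 40 libraries in all. The labels do not say that the 5 libraries came from separate cultures, so p-values measure the spread between these libraries, which may be technical.

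In an SCF ligase, SKP1 joins the cullin CUL-1, which carries the RING protein RBX-1, to an F-box protein that binds the substrate. Most animals have a single Skp1, whereas nematodes have many copies. In *C. elegans*, *skr-1* and *skr-2* encode the general adaptors. *skr-3*, *skr-4* and *skr-5* act with the cullin CUL-6 in the response to intracellular pathogens and proteotoxic stress. *skr-7*, *skr-8*, *skr-9* and *skr-10* form a subgroup of close copies whose depletion slows growth. No role was assigned to *skr-13* here.

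Several of the members are neighbours. In ce10 coordinates, *skr-13* (chromosome IV, 17162061 to 17162579), *skr-9* (IV, 17163537 to 17164121) and *skr-8* (IV, 17165214 to 17165798) lay in a row, followed by the non-member *skr-12* (IV, 17167238 to 17167756). *skr-7* (V, 4422413 to 4422997) lay beside *skr-14* (V, 4421055 to 4422063), and *skr-2* (I, 9469696 to 9470446) beside *skr-1* (I, 9471556 to 9472315). The listed intervals of *skr-10* and *skr-3* spanned 779705 and 743428 bases and overlapped 55 and 135 other listed genes. Their fragments per unit of FPKM were nonetheless 0.974 and 1.05 times that of *skr-8*, whose interval is 585 bases. How reads shared by such copies were assigned was not given in the sources used here, so the split between *skr-7*, *skr-8*, *skr-9* and *skr-10* is uncertain.

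Totals ranged from 18690583 to 36883662 fragments per library (median 26451138). Levels are given as fragments per 1000000 of the library total (CPM), and log2 fold changes come from edgeR's quasi-likelihood fit with TMM scaling, where a call needs an adjusted p under 0.05 and a log2 change of at least 1. With library size in place of TMM the median of all genes moved by up to 0.21 on the log2 scale, in the wild-type comparison of ages at 25°C. One library (*npr-8*-labelled, young, 25°C, library 0) stood apart: its mean correlation with its group was 0.9644, the lowest of the 40. The *npr-8* gene itself had 1.35 to 2.73 CPM in WT libraries and 2.22 to 3.05 CPM in the *npr-8*-labelled libraries of 3 groups, and its count was not analysed in the 4th. A count over the whole gene does not separate the deleted from the remaining part, so it checks nothing, and the mutant libraries are called *npr-8*-labelled throughout.

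*skr-8* was absent or nearly so in young animals at 20°C and highest in old wild-type animals at 20°C. No fragment was counted in any of the 5 young WT libraries at 20°C, which allows up to 0.114 CPM (3 fragments in the median library). In young WT at 25°C the 5 libraries had 15, 10.5, 8.62, 8.78 and 14.2 CPM. In old WT they had 32.6, 28.9, 31, 31.3 and 35.6 CPM at 20°C and 19.2, 24.3, 20.9, 16 and 17 CPM at 25°C. These 4 wild-type groups did not overlap. As a description, the mean was at least 100-fold higher in young WT at 25°C, and at least 281-fold higher in old WT at 20°C, than 3 fragments in the median young 20°C library would give.

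In *npr-8*-labelled animals *skr-8* followed a flatter course. In young animals at 20°C there were 4 fragments in all, from 1 library (0.131 CPM). At 25°C the young libraries had 5.88, 3.40, 2.17, 2.16 and 1.85 CPM, the highest being the library that stood apart. The old libraries had 6.03, 6.35, 7.23, 5.97 and 5.76 CPM at 20°C and 7.33, 6.91, 9.25, 7.33 and 9.15 CPM at 25°C. Ordered by mean, the groups ran from old WT at 20°C (31.9 CPM) through old WT at 25°C (19.5) and young WT at 25°C (11.4) to old *npr-8*-labelled at 25°C (7.99) and 20°C (6.27), young *npr-8*-labelled at 25°C (3.09), young *npr-8*-labelled at 20°C (0.0262) and young WT at 20°C (0). Neighbours overlapped from young WT at 25°C down to young *npr-8*-labelled at 25°C and again between the young 20°C groups, and the other 3 steps did not overlap.

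**Figure D1:**
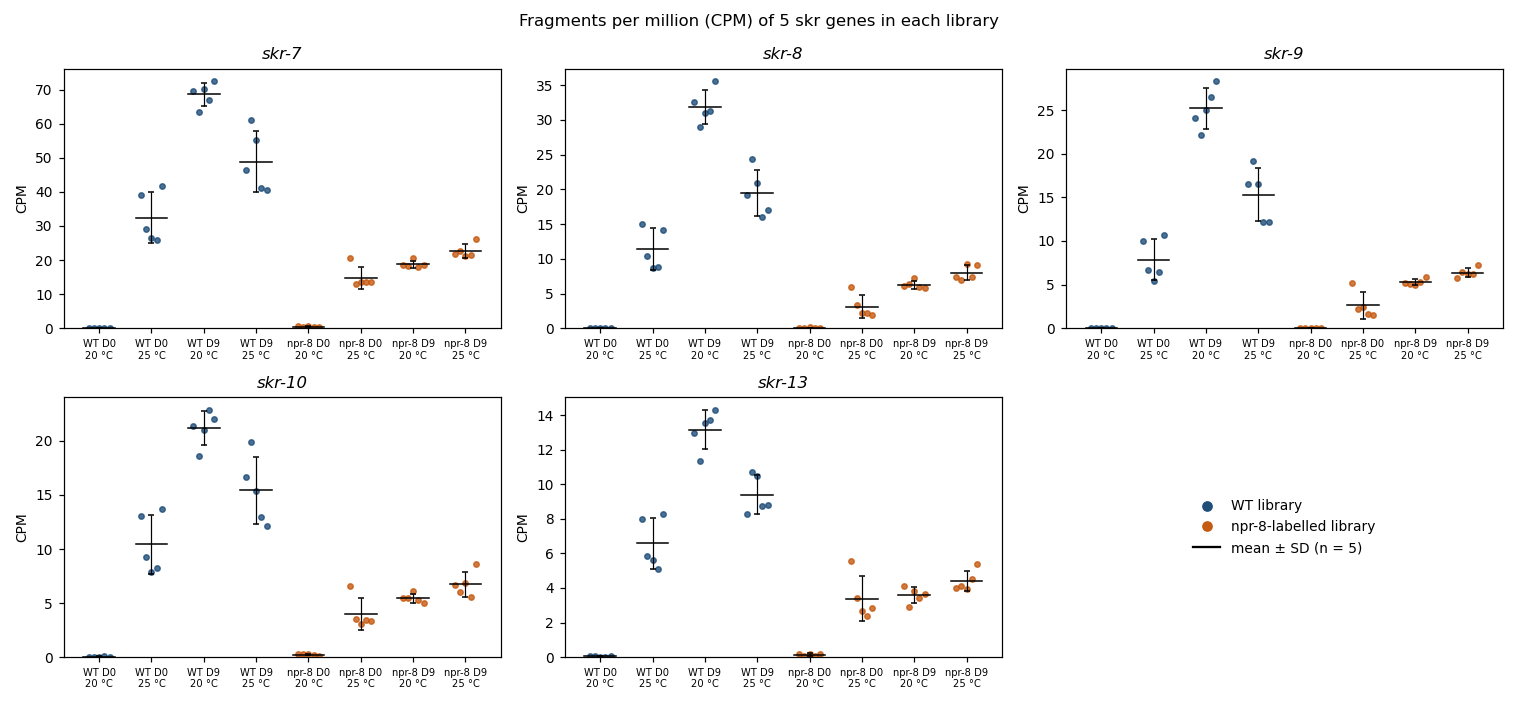
CPM of *skr-7*, *skr-8*, *skr-9*, *skr-10* and *skr-13* in each library (points), by group, with the mean and SD of 5 libraries (bars); the y axes are linear and start at 0. All 5 genes are near 0 in young animals at 20°C, highest in old WT at 20°C, and lower on average in *npr-8*-labelled than in WT libraries in the other 3 conditions.

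The comparison of young wild-type animals at 25°C with 20°C asks what growth in the warm changed. *skr-7*, *skr-9*, *skr-10* and *skr-13* rose, *skr-3* fell, and the other 4 members were not called. That is 4 of 9 members higher and 1 lower, beside 21.2% of all 14934 genes tested called higher and 35% lower. The members' median log2 change was 0.82, against -0.15 for all genes. *skr-7* had 0.0379, 0, 0, 0 and 0.0396 CPM at 20°C, 2 fragments in all, and 39.2, 29, 26.4, 25.7 and 41.7 CPM at 25°C. The ratio was 2213 (exact 95% counting interval 612 to 18276). *skr-9* had no fragment at 20°C and was at least 69-fold higher at 25°C (7.84 ± 2.34 CPM, SD, n = 5). *skr-10* went from 0.0498 ± 0.0523 to 10.4 ± 2.73 CPM (log2 7.75 ± 0.37, SE, edgeR adjusted p = 1.2e-10), and *skr-13* from 0.038 ± 0.0281 to 6.58 ± 1.47 CPM (7.51 ± 0.34, adjusted p = 4.6e-11). These 4 genes passed the filter on low counts only through their 25°C libraries. A call could therefore only come out higher, and their p-values add nothing on the direction. No library at 20°C reached any library at 25°C for these 4 genes, and how many of all genes separated in this way was not counted.

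Age at 20°C in wild type gave the same genes and 2 more. *skr-2*, *skr-5*, *skr-7*, *skr-9*, *skr-10* and *skr-13* rose and *skr-3* fell, so 6 of 9 members were higher and 1 lower, beside 26.7% and 36.7% of 15323 genes. The members' median was 1.33, against -0.16 for all genes. *skr-7* reached 69.6, 63.5, 70.3, 67.1 and 72.6 CPM in old animals, a ratio of 4666 (1291 to 38538) to young animals. *skr-9* was at least 222-fold higher. *skr-10* rose to 21.2 ± 1.59 CPM (log2 8.56 ± 0.23, adjusted p = 2.6e-13) and *skr-13* to 13.2 ± 1.14 CPM (8.31 ± 0.22, adjusted p = 2.6e-13). This comparison and the one of temperatures share the young 20°C libraries, in which *skr-7*, *skr-9*, *skr-10* and *skr-13* were at or near 0. Here these genes passed the filter on low counts only through the old libraries, so again only a higher call was possible.

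Markers of embryos and of oocytes rose in the same comparisons as these genes, and markers of sperm fell. Of 15 early embryo marker genes measured in every group, 14 were under 1 CPM in young WT at 20°C and 4 had no fragment. *elt-7*, which adult intestine also expresses, made up 96.2% of their sum there. In the young 25°C and old groups of both genotypes *sea-1* alone made up 51.6% to 60.7% of the sum, and 7 to 10 of the 15 genes were under 1 CPM. The sum was 15.9 to 19.7 CPM in young WT at 20°C, 48.6 to 60.0 at 25°C, 80.2 to 93.7 in old WT at 20°C and 85.8 to 88.2 in old WT at 25°C. In *npr-8*-labelled libraries it was 13.5 to 14.8 in young animals at 20°C, 33.1 to 43.4 at 25°C, 36.0 to 40.6 in old animals at 20°C and 42.2 to 50.4 at 25°C. A list of 14 oocyte genes summed to 989 to 1272 CPM in young WT at 20°C and 16706 to 17968 CPM in old WT at 20°C, none of them at 0. The sum of 15 sperm genes went from 616 to 703 CPM in young WT at 20°C to 40 to 66.1 CPM in young WT at 25°C and 10 to 21.2 CPM in old WT at 20°C. In both comparisons 14 of 14 tested were called lower (medians -3.73 and -6.05), beside 35% and 36.7% of all genes. Of the 15, 6 averaged under 1 CPM in young WT at 25°C and 10 in old WT at 20°C. Sperm genes that passed the filter on low counts only through the young 20°C libraries could only be called lower. Body wall muscle genes (4 genes) fell from 6784 to 8017 CPM in young WT at 20°C to 272 to 482 CPM in old WT at 20°C. Their part in the skr differences was not tested. In whole animals, fewer cells of a type and less RNA per cell cannot be told apart.

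**Figure D2:**
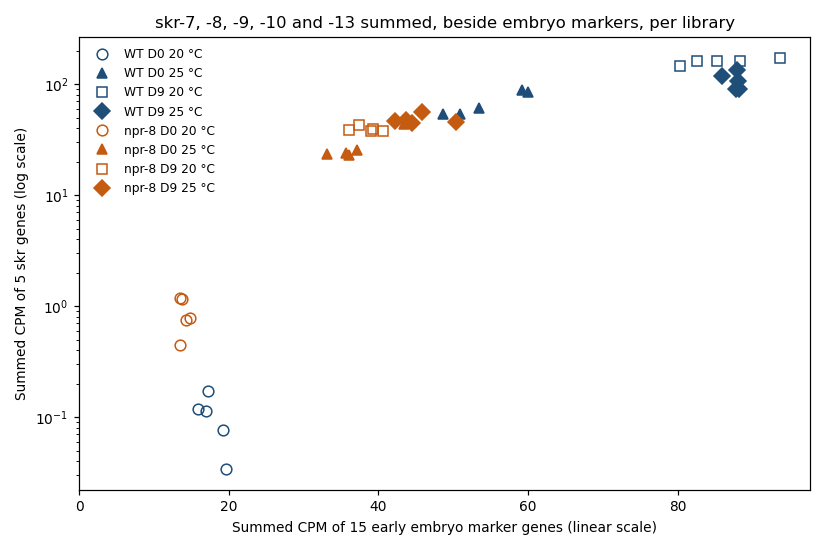
Summed CPM of *skr-7*, *skr-8*, *skr-9*, *skr-10* and *skr-13* (y axis, log scale) beside the summed CPM of 15 early embryo marker genes (x axis, linear) in each of the 40 libraries; colour gives the genotype and symbols the age and temperature. Young 20°C libraries lie at the lower left, old WT libraries at the upper right (80.2 to 93.7 CPM of markers at 20°C), and *npr-8*-labelled libraries from the other 3 conditions between them. Most of the marker sum is *elt-7* in young 20°C libraries and *sea-1* (51.6% to 60.7%) in the others.

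Once the genes were on, warmth and age changed them much less. In old wild type, 25°C against 20°C, 1 of 9 members was higher (*skr-5*) and none lower by the call rule, beside 1.98% and 4.25% of 13689 genes. Where a count of members is 0, here and in the comparisons that follow, DESeq2 also gave 0 unless stated. At an unadjusted p under 0.05, in either direction, edgeR counted 6 of 9 members here, 4 and 6 of 9 for age at 25°C in WT and in *npr-8*-labelled animals, and 8 of 9 for warm growth in young *npr-8*-labelled animals. For loss of *npr-8* it counted 8 of 10 in young animals at 25°C and 9 of 10 in old animals at either temperature. The share of all genes at an unadjusted p under 0.05 was not counted, here or below. These counts therefore do not set the members apart from other genes. *skr-7*, *skr-9*, *skr-10* and *skr-13* had log2 differences of -0.48, -0.71, -0.45 and -0.48, with adjusted p from 0.00018 to 0.0052, all below the size a call needs. *skr-7* was 69.6, 63.5, 70.3, 67.1 and 72.6 CPM at 20°C against 46.5, 61.1, 55.2, 41.1 and 40.6 at 25°C, with no overlap.

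Age at 25°C in wild type changed 1 of 9 members (*skr-5*, higher) and none lower, beside 9.07% and 15.4% of 13848 genes. *skr-9* moved by 0.75 ± 0.21 (adjusted p = 0.0078), while *skr-7* (0.38 ± 0.19, adjusted p = 0.096), *skr-10* (0.35 ± 0.20, adjusted p = 0.13) and *skr-13* (0.30 ± 0.14, adjusted p = 0.064) did not pass. In *npr-8*-labelled animals, age at 25°C raised 1 of 9 (*skr-9*, 1.12 ± 0.22, adjusted p = 0.00038) and lowered none, beside 9.97% and 23.7% of 14651 genes. The *skr-9* call rested on its size: without young library 3 it was 0.99 (adjusted p = 0.0014), and without the library that stood apart it was 1.41.

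Warm growth in young *npr-8*-labelled animals raised 5 of 9 members (*skr-5*, *skr-7*, *skr-9*, *skr-10* and *skr-13*) and lowered none, beside 13% and 26.1% of 14876 genes. The median was 1.16, against -0.05 for all genes. *skr-7* had 0.768, 0.414, 0.591, 0.246 and 0.408 CPM at 20°C and 20.6, 12.9, 13.5, 13.6 and 13.4 CPM at 25°C (log2 4.92 ± 0.20, adjusted p = 6.4e-10). *skr-10* changed by 4.19 ± 0.23 and *skr-13* by 4.55 ± 0.31 (adjusted p = 4.8e-09 and 2.9e-08). *skr-9* rose from 1 fragment over the cool group to 340 over the warm one, a ratio of 353 (63 to 14001, counting error only). *skr-7*, *skr-9*, *skr-10* and *skr-13* passed the filter on low counts only through the 25°C libraries, so only a higher call was possible for them.

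For loss of *npr-8*, the same 5 genes were lower in *npr-8*-labelled animals in 3 of the 4 conditions. *skr-8* was tested here, but the warm and old libraries in which its rise was seen are part of these tests. The p-values of *skr-8* are therefore not free of the way it was chosen. In young animals at 25°C, *skr-7*, *skr-8*, *skr-9*, *skr-10* and *skr-13* fell, 5 of 10 members, and none rose, beside 2.84% of 13938 genes lower and 14.4% higher. The members' median was -0.67 against 0.06 for all genes. *skr-8* changed by -2.09 ± 0.26 (4.26-fold, adjusted p = 4.4e-05), and its 5 WT libraries (8.62 to 15 CPM) lay above all 5 *npr-8*-labelled ones (1.85 to 5.88 CPM). *skr-9* changed by -1.81 ± 0.27, *skr-10* by -1.59 ± 0.20, *skr-7* by -1.31 ± 0.15 and *skr-13* by -1.16 ± 0.19, with adjusted p from 3.2e-05 to 0.00037. Without the library that stood apart, *skr-8* was at -2.32 and *skr-13* at -1.29. With library size in place of TMM *skr-13* was at -0.96 (adjusted p = 0.0048), under the size a call needs, which leaves 4 of 10 lower. The limma fit of log2(FPKM + 1) called none of the 5, with *skr-8* at -1.93 (adjusted p = 0.25). It called all 5 once the 2 libraries with low deposited FPKM sums were left out, with *skr-8* at -2.08 (adjusted p = 0.00026).

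In old animals at 20°C the differences were larger. The same 5 genes fell and none rose, 5 of 10 members, beside 9.93% of 11638 genes lower and 11.4% higher. *skr-8* was 5.11-fold lower (log2 -2.36 ± 0.07, adjusted p = 1.5e-17), and *skr-9* was 4.80-fold lower (-2.26 ± 0.08, adjusted p = 1.3e-16). *skr-10*, *skr-7* and *skr-13* were at -1.96, -1.88 and -1.88. *skr-7* had 18.6, 18.2, 20.6, 18 and 18.6 CPM in the *npr-8*-labelled libraries, against 63.5 CPM in the lowest WT library. The median over the 10 members was -1.32, against -0.04 for all genes. Here both groups come from a table of transcripts summed to genes, in which all 10 members were recovered.

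In old animals at 25°C, 5 of 10 members again fell, the same 5, and none rose, beside 3.5% of 14374 genes lower and 10.1% higher. *skr-8* was 2.61-fold lower (log2 -1.38 ± 0.12, adjusted p = 1.7e-07), with *skr-9* at -1.36 ± 0.13, *skr-10* at -1.30 ± 0.15, *skr-7* at -1.21 ± 0.12 and *skr-13* at -1.19 ± 0.11. WT and *npr-8*-labelled libraries did not overlap for any of the 5, and how many of all genes separated in this way was not counted. The median was -0.91 against -0.01 for all genes. Over the leave-outs of single libraries, *skr-8* stayed between -2.32 and -1.98 in young animals at 25°C, between -2.39 and -2.30 in old animals at 20°C and between -1.45 and -1.29 in old animals at 25°C.

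The embryo list also fell in these 3 conditions. Of its 16 genes, 7 of 10 tested were lower in young animals at 25°C (median -1.26), 4 of 9 in old animals at 20°C with 1 higher (median -0.96), and 6 of 10 in old animals at 25°C with 1 higher (median -1.06). Over all genes tested in these 3 conditions, 2.84%, 9.93% and 3.5% were called lower and 14.4%, 11.4% and 10.1% higher. None of the 14 or 15 oocyte genes tested was called in any of the 3, with medians of -0.66, -0.09 and -0.36. The sum of 14 oocyte genes was nonetheless lower in young *npr-8*-labelled libraries at 25°C (6835 to 11102 against 14669 to 14953 CPM in WT). It was also lower in old ones at 25°C (14805 to 18418 against 19324 to 19997 CPM). In old animals at 20°C the sums overlapped (15547 to 17243 against 16706 to 17968 CPM). Sperm genes were called higher, 12 of 13, 14 of 14 and 13 of 13 tested, with sums of 125 to 160 against 40 to 66.1 CPM in young animals at 25°C. In old WT at 25°C 13 of 15 sperm genes averaged under 1 CPM, and only 6 passed the filter on low counts between the old WT groups. A list gene that passed this filter only through 1 genotype could only be called higher in that genotype. Markers of other tissues moved as well. In old animals at 20°C, 5 of 6 hypodermis genes (median -1.90), 3 of 6 intestine genes (median -0.98) and 2 of 4 body wall muscle genes (median -0.87) were called lower, and in young animals at 25°C 3 of 5 hypodermis genes (median 1.58) and 1 of 6 neuron genes were called higher. In old animals at 25°C none of the 6 genes of each of these 4 lists was called. What these markers contribute to the lower skr values was not tested.

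In young animals at 20°C *skr-7* was higher, not lower, in the *npr-8*-labelled libraries, at a very low level. Only 5 of 10 members (*skr-1* to *skr-5*) passed the filter on low counts, and 0 of 10 were called in either direction, beside 4.41% of 14808 genes higher and 1.47% lower. edgeR gave 1 of these 5 an unadjusted p under 0.05 (*skr-3*). *skr-7* did not pass the filter but had 66 fragments in the *npr-8*-labelled libraries against 2 in WT, a ratio of 33.1 (8.82 to 279), and every *npr-8*-labelled library (0.246 to 0.768 CPM) lay above every WT library (0 to 0.0396 CPM). Without the filter edgeR gave *skr-7* 4.69 (adjusted p = 4.6e-05), *skr-10* 1.99 (0.013) and *skr-13* 1.82 (0.049), and DESeq2 gave *skr-7* 5.04 (5.4e-06), *skr-10* 2.09 (0.02) and *skr-13* 1.92 (0.095). The oocyte list was higher in these *npr-8*-labelled libraries too, 11 of 15 genes called and a sum of 1811 to 2987 CPM against 989 to 1272 in WT, and the embryo sum was slightly lower (13.5 to 14.8 CPM against 15.9 to 19.7). *elt-7* made up 91.4% of that embryo sum in *npr-8*-labelled libraries and 96.2% in WT. The part of these lists in the *skr-7* difference was not tested.

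**Figure D3:**
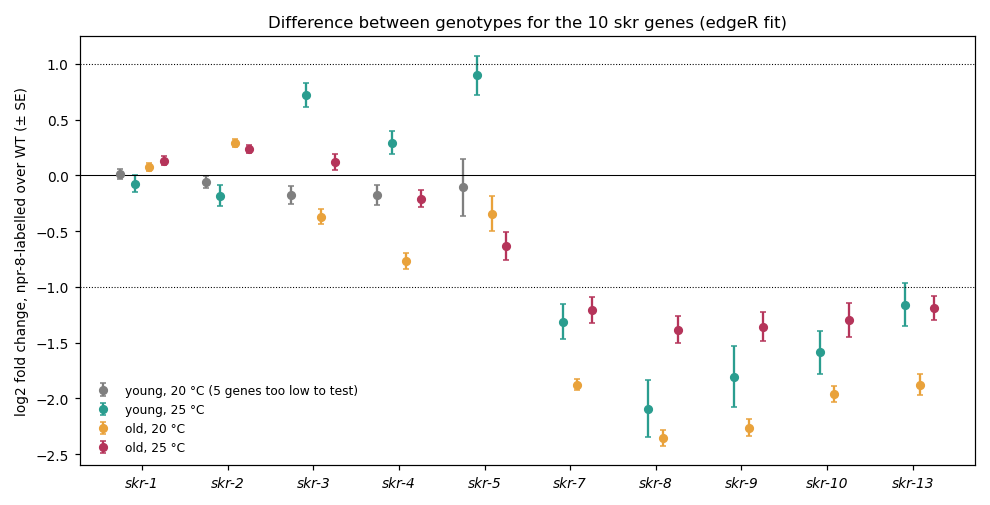
Log2 fold change of *npr-8*-labelled over WT libraries (y axis, edgeR, points with SE, 5 libraries per group) for the 10 genes in each of the 4 conditions; dotted lines mark a change of 1. *skr-7*, *skr-8*, *skr-9*, *skr-10* and *skr-13* lie below -1 in 3 conditions and were too low to test in young animals at 20°C, while *skr-1* to *skr-5* stay between -1 and 1.

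The proportions of the 5 genes to each other shifted between groups, within wild type as well as between genotypes. *skr-7* made up 42.9% to 47.3% of their summed CPM in the wild-type groups with counts (means over 5 libraries), and *skr-8* 16.6% to 19.9%. In young *npr-8*-labelled animals at 25°C, *skr-8* took 10.6% ± 2.55 (SD, n = 5) and *skr-7* 54.3% ± 5.22. The ratio of *skr-8* to *skr-7* in CPM was 0.326 to 0.383 in young WT at 25°C and 0.138 to 0.286 in *npr-8*-labelled libraries. In old animals at 20°C it was 0.441 to 0.491 against 0.310 to 0.351, with no overlap, and at 25°C it was 0.380 to 0.419 against 0.303 to 0.438, with overlap. The ratio of *skr-9* to *skr-7* was 0.204 to 0.256 in young WT at 25°C, 0.345 to 0.396 in old WT at 20°C and 0.297 to 0.355 in old WT at 25°C, against 0.117 to 0.255, 0.240 to 0.317 and 0.264 to 0.294 in the *npr-8*-labelled libraries. For both *skr-8* and *skr-9* the ratios of young WT at 25°C and old WT at 20°C did not overlap. The ratio of *skr-13* to *skr-7* overlapped between genotypes in all 3 conditions. These ratios are a description. Read sharing between close copies would enter them, and the 10 pairwise correlations of the 5 genes over 35 libraries, 0.968 to 0.997, rest on the same libraries and the same low young 20°C groups.

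*skr-1* and *skr-2*, the general adaptors, were the most abundant members by length-scaled level in the authors' mean FPKM. In old WT at 20°C *skr-1* stood at 569 and *skr-2* at 470 FPKM, *skr-7* at 163, *skr-8* at 85.6 and *skr-5* at 5.68 FPKM. In young WT at 20°C the order was *skr-1* (422), *skr-2* (202) and *skr-3* (144 FPKM), with *skr-8* and *skr-9* listed at 0. *skr-1* had the least variation across groups, from 168 CPM in young WT at 25°C to 223 CPM in old *npr-8*-labelled animals, and it was called in none of the 10 pairwise comparisons.

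*skr-2* rose in steps. In WT it had 83.7, 88.2, 83.4, 84.8 and 90.6 CPM in young animals at 20°C, 135, 133, 134, 128 and 131 CPM in young animals at 25°C, and 200, 179, 188, 180 and 182 CPM in old animals at 20°C. Age at 20°C changed it by 1.10 ± 0.05 (adjusted p = 3.7e-11), which was called. Warm growth in young animals changed it by 0.82 ± 0.05 (adjusted p = 1.1e-09), under the size a call needs. Old *npr-8*-labelled libraries had more *skr-2* than WT, by 0.29 ± 0.04 at 20°C (219 to 241 against 179 to 200 CPM, adjusted p = 3.1e-07) and by 0.24 ± 0.04 at 25°C (226 to 243 against 181 to 191 CPM, adjusted p = 4e-05). These differences have the opposite sign to those of *skr-8* and were not called.

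**Figure D4:**
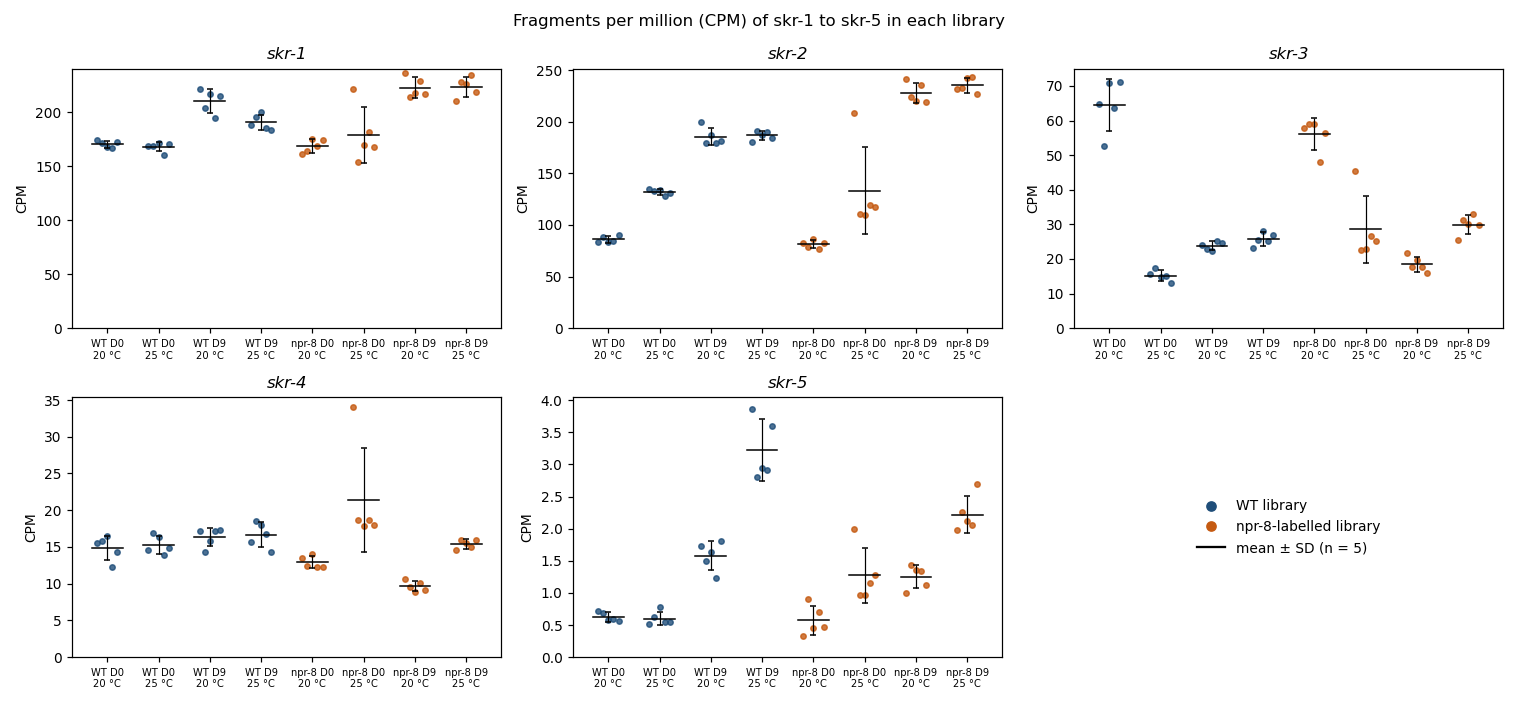
CPM of *skr-1* to *skr-5* in each library (points), by group, with the mean and SD of 5 libraries (bars); the y axes are linear and start at 0. *skr-3* is highest in young animals at 20°C (52.6 to 71.1 CPM in WT), *skr-2* in old animals, and *skr-5* in old WT at 25°C, and 1 young *npr-8*-labelled library at 25°C lies above its group for *skr-2*, *skr-3* and *skr-4*.

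*skr-3* fell with warmth and with age at 20°C. Young WT had 64.6, 52.6, 70.8, 63.7 and 71.1 CPM at 20°C and 15.6, 17.4, 14.7, 15.2 and 12.9 CPM at 25°C, a change of -1.89 ± 0.08 (3.70-fold lower, adjusted p = 2.6e-11). Age at 20°C lowered it to 23.9 ± 1.17 CPM (-1.44 ± 0.08, adjusted p = 2.6e-10). In young *npr-8*-labelled animals it went from 56.0 ± 4.61 to 28.5 ± 9.59 CPM with warmth, a log2 difference of -0.98 ± 0.12 (adjusted p = 1.1e-05), just under the size a call needs. Without the library that stood apart that difference was -1.11 (adjusted p = 2.4e-09), which is called. Age in WT at 25°C moved it the other way, by 0.56 ± 0.07 (adjusted p = 1e-06), which was not called.

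*skr-4*, which acts beside *skr-3*, stayed between 9.64 and 21.4 CPM in every group mean and was called in no pairwise comparison. Its largest differences were 0.72 ± 0.12 for warm growth in young *npr-8*-labelled animals (adjusted p = 0.00016) and -0.77 ± 0.07 for loss of *npr-8* in old animals at 20°C (8.82 to 10.6 against 14.3 to 17.3 CPM, adjusted p = 2.6e-09).

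*skr-5* was low and rose with age. It had 0.625 ± 0.0718 CPM in young WT at 20°C (14 to 19 fragments per library), 1.58 ± 0.226 in old WT at 20°C (log2 1.33 ± 0.16, adjusted p = 2.6e-06) and 3.87, 2.81, 2.94, 2.91 and 3.61 CPM in old WT at 25°C. Age at 25°C changed it by 2.21 ± 0.16 (4.63-fold, adjusted p = 1.2e-09) and warmth in old animals by 1.04 ± 0.13 (adjusted p = 5.6e-06). The latter was 0.97 without old 20°C library 3 and 0.98 without old 25°C library 0, under the size a call needs. Its differences between genotypes, 0.90 ± 0.17 in young and -0.64 ± 0.13 in old animals at 25°C, were not called.

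Tests of the difference between differences covered 9 members. The effect of age in WT was different at 25°C from 20°C for 5: *skr-7*, *skr-9*, *skr-10* and *skr-13* had a smaller rise at 25°C (4 lower) and *skr-3* a positive term of 2.02 ± 0.10 (1 higher, adjusted p = 4.8e-15), beside 21.9% and 32.1% of 15626 genes. The fitted terms of the 4 genes run from -11.60 to -7.98, depend on the prior count because of the near-empty young 20°C group, and are no measure of size. Because that group was near-empty and the other WT groups were not, only a lower term was possible for these 4 genes. Their calls restate the near-empty group and add nothing beside the share of all genes. The effect of warmth in young animals was smaller in *npr-8*-labelled animals for *skr-7* (-5.99 ± 0.61, adjusted p = 8.1e-08), *skr-10* (-3.57 ± 0.62, adjusted p = 6.9e-05) and *skr-13* (-2.98 ± 0.71, adjusted p = 0.0016), 3 lower beside 5.36% of 15457 genes. These terms also rest on the near-empty young WT group at 20°C, with 2, 7 and 5 fragments, and give the direction and not the size: without single libraries that of *skr-10* ran from -4.34 to -3.32. The term of *skr-9* was -3.14 ± 2.58 (adjusted p = 0.32), with 0 and 1 fragments in the 2 groups at 20°C. *skr-5* had a term of 1.01 ± 0.31 (adjusted p = 0.01), 1 higher beside 16.1%. The *skr-5* term was under 1 with RLE size factors (0.95), with DESeq2 (0.95) and in 10 of the 20 leave-outs of a library, so its call is not firm. The effect of age at 25°C was different between genotypes for *skr-5* (-1.59 ± 0.21, adjusted p = 2.8e-06), 1 lower beside 12.2% of 15033 genes, with none higher beside 8.65%. For *skr-7* that term was 0.05 ± 0.20 (adjusted p = 0.83) and for *skr-13* -0.09 ± 0.23 (adjusted p = 0.77).

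The partners of SKP1 in the ligase moved by less than a call needs between genotypes. *cul-1*, the SCF cullin, had 114 ± 5.57 CPM in young WT at 20°C and 198 ± 2.42 CPM in old WT at 20°C (log2 0.78 ± 0.04, adjusted p = 3.2e-10, not called). It was lower in *npr-8*-labelled young animals at 25°C by -0.56 ± 0.12 (adjusted p = 0.0021), which was not called. *rbx-1*, the RING subunit, rose with age at 20°C in WT (1.01 ± 0.10, adjusted p = 3.1e-07), as did *rbx-2* (1.5 ± 0.09). Of 5 SCF partners, 2 were higher with age in WT at 20°C, where 26.7% of all genes were, and none was called in any of the 4 comparisons of genotypes. The neddylation and COP9 signalosome list, whose members load and remove NEDD8 on cullins, had 3 of 11 higher with warmth in young WT (*ubc-12* 1.20 ± 0.06, *csn-4* 1.09 ± 0.05, *csn-5* 1.08 ± 0.07; median 0.90 against -0.15 for all genes), where 21.2% of all genes were higher, and 8 of 11 higher with age at 20°C (median 1.11 against -0.16), where 26.7% were, with none lower and none called between genotypes.

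Among 9 F-box genes with known roles, 6 rose and 1 fell with warmth in young WT (median 1.18 against -0.15 for all genes), beside 21.2% and 35% of all genes. With age at 20°C 8 rose and 1 fell (median 1.53 against -0.16), beside 26.7% and 36.7%. *fsn-1*, which acts at synapses, rose by 2.23 ± 0.07 and 2.35 ± 0.05, *skpt-1*, the Skp2 homologue, by 2.05 ± 0.04 and 1.98 ± 0.04, and *dre-1*, which times larval development, fell by 1.67 and 2.1 on the log2 scale. None of the 9 was called between genotypes in any condition. Of 11 cell cycle genes linked to SCF, 8 rose and 1 fell with warmth in young WT (median 1.71) and 10 rose with age at 20°C (median 1.88), beside the same shares of all genes. *cyd-1*, cyclin D, was called between genotypes in 3 conditions, higher when young at 20°C (1.11 ± 0.16) and lower when young at 25°C (-1.29 ± 0.14) and when old at 20°C (-1.31 ± 0.07).

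The intracellular pathogen response list, which includes *cul-6*, had 7 of its 11 genes in the tables. Only 4 passed the filter on low counts for warmth in young WT, and all 4 fell (median -1.82), beside 35% of all genes. With age in WT at 20°C 4 of 7 were higher and 1 lower (median 2.53), beside 26.7% and 36.7%. *cul-6* fell by 1.20 on the log2 scale with warmth in young WT (12 ± 2.69 to 4.53 ± 0.156 CPM, adjusted p = 2e-06) and rose with age at 25°C (1.39 ± 0.08, adjusted p = 3.4e-11), when *skr-5* also rose. At 25°C, age in WT raised 5 of 6 tested (median 3.38), beside 9.07% of all genes, with *fbxa-75* at 7.88 ± 0.51. Between the young 25°C groups of WT and *npr-8*-labelled animals only 3 genes of the list passed the filter on low counts. For genes that passed it only through the old libraries, at either temperature, only a higher call with age was possible. Loss of *npr-8* lowered 4 of 6 tested in old animals at 20°C (median -1.43), beside 9.93% of all genes, and 4 of 7 at 25°C, beside 3.5% (median -1.18, *F26F2.1* -2.0 ± 0.20), while *cul-6* was not called in either.

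Of the 10 other skr genes, 9 were tested in most comparisons. With warmth in young WT 6 rose, beside 21.2% of all genes, and with age at 20°C 6 rose, beside 26.7%, and none fell in either. Of these, *skr-12* (0.0759 to 0.695 CPM), *skr-14* and *skr-15* were at or near 0 in young WT at 20°C. They passed the filter on low counts only through the warm or old libraries, so only a higher call was possible for them. Loss of *npr-8* lowered 2 in young animals at 25°C (2.84% of all genes), 5 in old animals at 20°C (9.93%) and 1 in old animals at 25°C (3.5%). *skr-14*, beside *skr-7*, was lower in all 3 (-1.15 ± 0.14, -1.95 ± 0.06 and -1.35 ± 0.08), and *skr-12*, beside *skr-8*, was lower in the first 2 (-1.60 ± 0.25 and -1.15 ± 0.08).

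Over 35 libraries and 13480 genes of at least 1 CPM on average, the genes whose log2(CPM + 1) was most like that of *skr-8* were *skr-9* (Pearson r = 0.997), *fbxb-103* (0.995), *fbxc-28* (0.994), *W04A8.5* (0.994) and *F14B6.3* (0.994). *skr-7* was most like *skr-14* (0.998), *skr-15* (0.997) and *inx-2* (0.996), *skr-10* most like *dsl-2* (0.996), and *skr-13* most like *skr-10* (0.995). For *skr-2* it was *rfl-1* (0.993), a subunit of the NEDD8-activating enzyme, and for *skr-3* *egal-1* (0.963). Old *npr-8*-labelled libraries at 20°C were not used here. The libraries fall into 7 groups that share the near-empty young 20°C libraries, so these values describe the pattern over groups.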

How the data were processed

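RNA from whole animals was sequenced as TruSeq Stranded mRNA libraries. The submitters' notes name Bowtie2 2.3.4, Cufflinks 2.2.1, Cuffdiff and build ce10, whereas the study's methods name HISAT2 as the aligner, and assignment of shared reads was not given in the sources used here. The deposited expected counts are raw fragments per gene that the authors estimated with Cuffdiff and were rounded, and the deposited FPKM are the authors' normalised values per gene length. Old *npr-8*-labelled animals at 20°C have fragments only per transcript, so transcripts were summed to genes (of 13787 genes averaging 10 or more fragments in old WT, 11101 were recovered). Totals were 18690583 to 36883662 fragments. 12 columns of scaled fragments were not used, nor were the authors' fold changes and p-values.

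edgeR 4.0.16 (R 4.3.3) used filterByExpr (minimum count 10, total 15), TMM factors, robust quasi-likelihood fits per comparison and Benjamini-Hochberg adjustment over all genes tested. Calls needed an adjusted p under 0.05 and a log2 change of at least 1. limma 3.58.1, DESeq2 1.42.0 and other scalings were alternatives. The fit was tested on simulated data. Members and gene lists were chosen with earlier results of these data known. The text names all members, called list genes (at most 4 per list and comparison), *cul-1*, *rbx-1*, and the 5 genes most like *skr-8* (3 for others). Group folds against no fragment use 3 fragments in the median library. Counting intervals are exact 95% Clopper-Pearson and cover counting error only. Replicate numbers are those of the tables. No pair of libraries of a group agreed within sampling noise.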

Additional observations from a re-analysis of the deposited data

Results flagged for a closer look

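In 12 of 78 sets of 5 libraries, 1 library lay far from the other 4 by Dixon's criterion (gap over range above 0.71), where chance alone gives about 1 in 20. Of these, 6 were in young *npr-8*-labelled library 0 at 25°C: *skr-2* at 208 CPM, *skr-3* at 45.4, *skr-4* at 34.1, *skr-7* at 20.6, *skr-9* at 5.23 and *skr-10* at 6.55 CPM, each the highest of its group. That library also had the lowest sums of oocyte (6835 CPM), body wall muscle (1597 CPM), intestine and hypodermis markers and the highest sums of embryo (43.4 CPM), sperm and neuron markers in its group, and the part of these was not tested. The calls for loss of *npr-8* in young animals at 25°C remained without it. The others were *skr-1* in young WT library 3 at 25°C (161 CPM, lowest), *skr-3* in young *npr-8*-labelled library 3 at 20°C (47.9, lowest), *skr-7* in old *npr-8*-labelled library 2 at 20°C (20.6, highest), *skr-8* and *skr-9* in young *npr-8*-labelled libraries at 20°C (0.131 and 0.034 CPM, each from the single library with fragments) and *skr-10* in young WT library 3 at 20°C (0.139, 4 fragments).

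Effects that differed between groups by an interaction test in edgeR were as follows. For age in WT at 25°C against 20°C the terms were -11.38 for *skr-7*, -11.60 for *skr-9*, -8.18 for *skr-10*, -7.98 for *skr-13* and 2.02 for *skr-3*. For warmth in young *npr-8*-labelled against young WT animals they were -5.99 for *skr-7*, -3.57 for *skr-10*, -2.98 for *skr-13* and 1.01 for *skr-5*. For age at 25°C between genotypes the term of *skr-5* was -1.59. The terms of *skr-7*, *skr-9*, *skr-10* and *skr-13* rest on the near-empty young 20°C groups and are no measure of size. For age in WT only a lower term was possible for these genes.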

How the results depend on the processing

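Of 2154 recomputed values of members under the alternatives, 2120 stayed on the same side of the call rule, 26 lost the call and 8 gained it. No call changed sign. Values that were not called could change sign and still count as the same. For example, *skr-5* for loss of *npr-8* in young animals at 20°C went from -0.107 to 0.025 without *npr-8*-labelled library 0. With an adjusted p under 0.05 and no minimum size, the members called became 7 higher (warm growth, young WT), 5 lower (warm growth, old WT), 1 lower (warm growth, young *npr-8*-labelled), 4 higher (age, WT, 25°C), 5 higher and 1 lower (age, *npr-8*-labelled, 25°C), 3 higher (loss of *npr-8*, young, 25°C), 1 higher (old, 20°C) and 2 higher (old, 25°C), and for the interactions 2 higher (age by temperature), 3 higher (*npr-8* by temperature) and 1 higher and 3 lower (*npr-8* by age). That list leaves out counts that moved by a smaller ratio. The share of all genes called without a minimum size was not counted, so these counts do not set the members apart. For loss of *npr-8* in old animals, *skr-3* and *skr-4* at 20°C and *skr-4* and *skr-5* at 25°C also passed as lower. *skr-2* and *skr-4* passed as higher for warm growth in young *npr-8*-labelled animals, and *skr-1* for age in WT at 20°C. *skr-1* and *skr-2* passed as lower for age by temperature. With library size alone, loss of *npr-8* in young animals at 25°C had 1 higher (*skr-5*, 1.08) and 4 lower (*skr-13* at -0.96), age by temperature 2 higher and *npr-8* by temperature 2 higher; the last had 0 higher with RLE size factors, DESeq2 or a threshold of 0.01. Loss of *npr-8* in young animals at 20°C had 3 higher with no filter and 2 higher with DESeq2. Loss of *npr-8* in young animals at 25°C had 0 lower by limma on log2(FPKM + 1) or log2(FPKM + 0.1), and 5 lower by either after the data were seen and 2 libraries were left out whose deposited FPKM sums (547819 and 541983) lay below those of the other 8 libraries of that comparison (1129259 or more).

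Leaving out 1 library at a time gave 1 to 2 higher for age by temperature, 0 to 1 higher for *npr-8* by temperature, for age in *npr-8*-labelled animals at 25°C, for loss of *npr-8* in young animals at 20°C and for warm growth in old WT, and 0 to 1 lower for warm growth in young *npr-8*-labelled animals. The other counts did not move: 4 higher and 1 lower in young WT with warmth, 6 higher and 1 lower in WT with age at 20°C, 5 higher in young *npr-8*-labelled with warmth, and 5 lower for loss of *npr-8* in each of the other 3 conditions.

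The replicate numbers did not pair the libraries: same-numbered libraries correlated from -0.351 to 0.147 over the 10 comparisons. A replicate block kept every count of members, for example 5 lower for loss of *npr-8* in each of the 3 conditions. Of the 5 genes most like *skr-8* by Pearson, 2 were also among the top 5 by Spearman. Depth limits the young 20°C groups, where *skr-8* and *skr-9* had at most 4 fragments per group.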
